A study of Saccharomyces cerevisiae with 12 samples.

Results

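Transcripts of 37 genes of central carbon metabolism in the budding yeast Saccharomyces cerevisiae were followed, chosen by name as the enzymes of glycolysis, ethanol fermentation, the tricarboxylic acid (TCA) cycle, the glyoxylate cycle and gluconeogenesis. All 37 genes were found on the array through 41 probes, which gave 37 rows of the 6356 tested. TDH2 and TDH3, near-identical copies, have no probe of their own and share the row TDH2/TDH3, while ENO1 and ENO2 have a row each and also share the row ENO1/ENO2. RNA of whole cultures was hybridised in 1 colour, Cy5, to 12 Phalanx OneArray arrays, 3 in each of 4 groups. Both strains are MATα with the alleles his3Δ1, leu2Δ0, met15Δ0 and ura3Δ0 and with HPH in place of the chromosomal TRP1. Both also carry the plasmid pRS414-GAL1-HO-TRP1, so that every group, the controls included, holds HO, an endonuclease gene, under the galactose-inducible GAL1 promoter. The deletion strain differs by sgs1Δ::kanMX4, which removes the RecQ helicase Sgs1, and each genotype is 1 strain, YCL1071 for WT and YCL1098 for sgs1Δ. Control cultures grew for 4 h at 30 °C in tryptophan drop-out medium with 0.2% DMSO, and treated cultures received 30 µM tangeretin, a methoxylated flavone of citrus peel, at the same final DMSO concentration. The labels do not name the sugar of the medium. Separate cultures are not stated for the 3 arrays of a group, which share 1 sample number in their descriptions, so the p-values measure the spread between these arrays, which may be technical.

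Glycolysis splits glucose to pyruvate, and budding yeast on abundant glucose sends most of that pyruvate through pyruvate decarboxylase and alcohol dehydrogenase to ethanol even where oxygen is present. The TCA cycle oxidises acetyl-CoA in the mitochondrion, the glyoxylate cycle bypasses its decarboxylating steps so that carbon from ethanol or acetate can be kept, and gluconeogenesis turns that carbon back into sugar phosphate. Glucose represses many genes of the TCA cycle and most genes of the glyoxylate and gluconeogenic routes, whereas the glycolytic genes are among the most strongly transcribed of the cell.

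The study compared the response to tangeretin in each strain and the strains with each other. SGS1 itself read 114 ± 6.03 (SD, n = 3) in raw intensity in WT control and 163 ± 10.1 in WT with tangeretin, and was detected on none of the sgs1Δ arrays. The strains also differed in mating-type transcripts, although the labels call both strains MATα. MF(ALPHA)1, an α-factor gene, had a mean raw intensity of 1121 in WT control and 20889 in sgs1Δ control. Genes of a cells were higher in sgs1Δ control as well, with MFA1 at 486 and 2012, AGA2 at 1100 and 3429 and STE2 at 1109 and 2217. These raw values are not corrected for the brightness of the arrays. The arrays' median raw intensities were 530, 548 and 814 for WT control, 780 to 956 for WT with tangeretin, 964.5, 1344 and 928 for sgs1Δ control and 1367.5 to 1530 for sgs1Δ with tangeretin. Brightness therefore moved with strain and with treatment, WT control 3 stood apart from its group towards the treated WT arrays, and sgs1Δ control 2 was the brightest of its group. Arrays of a group correlated at 0.992 to 0.997 after normalization. Because whole cultures were measured, fewer cells with a transcript and less of it per cell cannot be told apart.

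The scanner ceiling fell on the glycolytic probes. A spot was taken to be at the ceiling where it lay within 30 units of the highest value of its array, which was 65467 to 65478. Of the 37 rows, 7 reached the ceiling on at least 1 array (18.9%), against 61 of all 6356 rows (0.960%). They were FBA1, the aldolase, TPI1, triose phosphate isomerase, TDH2/TDH3, the major glyceraldehyde-3-phosphate dehydrogenases, GPM1, phosphoglycerate mutase, ENO2, an enolase, CDC19, pyruvate kinase, and PDC1, the main pyruvate decarboxylase. No row of the TCA cycle, the glyoxylate cycle or gluconeogenesis was at the ceiling on any array.

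CDC19 read 65452 to 65467 in WT control and 65458 to 65463 in sgs1Δ with tangeretin, and was at the ceiling on all 12 arrays. No difference can be read from it, and it was left out of every count below, which leaves 36 rows with a value. The other 6 rows reached the ceiling more often on the brighter arrays. In WT control 3 of the 7 rows touched it on any array, in WT with tangeretin 5, and in both sgs1Δ groups all 7, and in sgs1Δ with tangeretin all 7 were at the ceiling on each of the 3 arrays. GPM1 read 48673, 49164 and 65466 in raw intensity in WT control and 65467, 65466 and 65471 in sgs1Δ with tangeretin. TPI1 read 52320, 49995 and 59193 in WT control and 65468, 65463 and 65464 in sgs1Δ with tangeretin. Both genes therefore ran out of scale in the treated deletion strain while 2 WT control arrays for GPM1 and all 3 for TPI1 still lay below it.

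The range that was left can be set against the array as a whole. From WT control to sgs1Δ with tangeretin the raw intensity rose 2.04-fold at the median of 5845 probes with a WT control mean of at least 50, before any normalization. It rose 1.85-fold at the median of the 30 members never at the ceiling and 1.20-fold at the median of the 7 that reached it. PDC1 rose 1.17-fold, ENO2 1.24-fold and CDC19 stayed at 1.00, while KGD1, a subunit of α-ketoglutarate dehydrogenase, rose 4.89-fold and ENO1, the second enolase, 3.61-fold. HXK2, the main hexokinase on glucose, rose 1.38-fold and PGK1, phosphoglycerate kinase, 1.36-fold, although neither touched the ceiling. ACO1 and LSC2 of the TCA cycle, also never at the ceiling, rose 1.25-fold and 1.28-fold, so a small rise alone does not mark a capped row. Changes of the 7 rows after normalization are thus bounded by the scanner, and an uncalled difference in them does not show that their transcripts were at the same level.

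**Figure D1:**
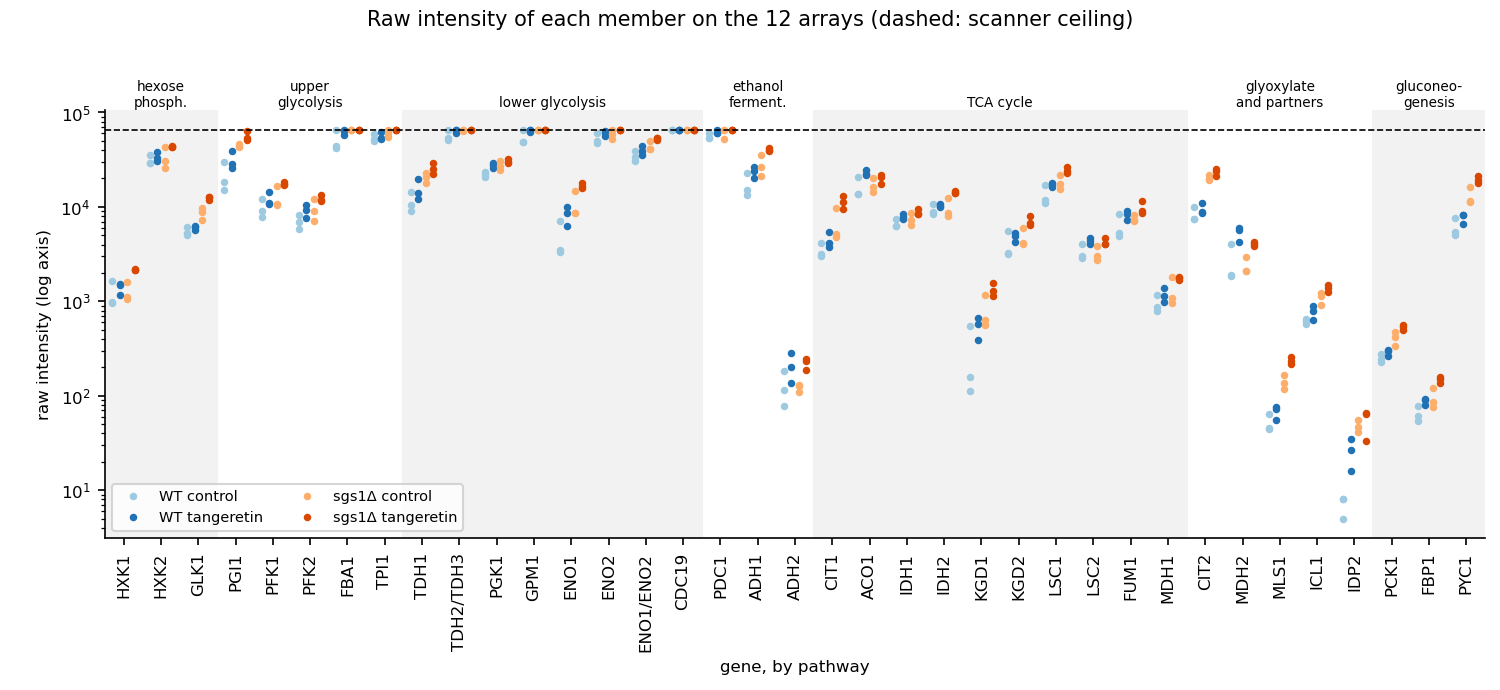
Raw intensity (vertical, log axis) of each of the 37 rows on the 12 arrays, ordered by pathway, with 3 points per group and colours for the 4 groups. The dashed line is the lowest of the arrays' highest spot values. CDC19 lies on it on all 12 arrays and 6 further glycolytic and fermentative rows lie on it on all 3 sgs1Δ tangeretin arrays, while no TCA, glyoxylate or gluconeogenic row reaches it.

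The array carries 14 further copies each of a TDH1 probe and a TDH2/TDH3 probe, listed among its positive controls, which show how far spots of 1 probe spread on 1 array. Copies of the TDH1 probe had a coefficient of variation of up to 24.9%, and the spot listed under the gene read 0.676 to 0.985 of the copies' median. For the TDH2/TDH3 probe 2 of 42 copies were at the ceiling in WT control, 5 in WT with tangeretin, 17 in sgs1Δ control and 36 in sgs1Δ with tangeretin.

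In control medium 6 of the 10 TCA cycle members were lower in sgs1Δ and 1 was higher. Of the 5 members of the glyoxylate cycle and its partners 3 were higher and 1 was lower. Among those higher, IDP2 was detected on no WT control array. Of 15 other TCA, glyoxylate and gluconeogenic rows, described further below, 8 were higher and 2 lower (median 0.35). Values are log2 intensities after quantile normalization, changes are differences of group means with their standard error (SE, n = 3 arrays per group), and a row was called at an adjusted p under 0.05 (limma, Benjamini-Hochberg over all 6356 rows). The comparison called 19 of the 36 members, 9 higher and 10 lower in sgs1Δ, where 48% of all rows were called, 21.3% higher and 26.7% lower. The members' share was therefore near that of the array, and the median member change was -0.02 against -0.03 for all rows. Arrays of the strains did not overlap for 19 members, and for 51.6% of all rows. Under tangeretin 14 members were called, 8 higher and 6 lower, where 45.6% of all rows were called, 20.5% higher and 25.1% lower, and 18 members had no overlap against 57.5% of all rows.

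The pathways split as follows in control medium. In the TCA cycle 1 of 10 rows was higher and 6 were lower, with a median change of -0.29. In the glyoxylate cycle and its cytosolic partners 3 of 5 were higher and 1 was lower, with a median of 0.37. Upper glycolysis had 1 of 5 rows higher, lower glycolysis 2 of 7 higher, and neither had a row that was lower. Of these rows FBA1, TPI1, TDH2/TDH3, GPM1 and ENO2 reached the ceiling, so the lack of a call does not show an equal level. Among the higher rows, TDH1 has a second probe that was lower (-0.38), and PGI1 lies on chromosome II, as described below. Of the 3 hexose phosphorylating enzymes 1 was lower, and fermentation and gluconeogenesis with anaplerosis, 3 rows each, had 1 higher and 1 lower apiece. Under tangeretin the TCA cycle had 1 row higher and 4 lower (median -0.12), and the glyoxylate rows 2 higher and 1 lower (median 0.17).

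**Figure D2:**
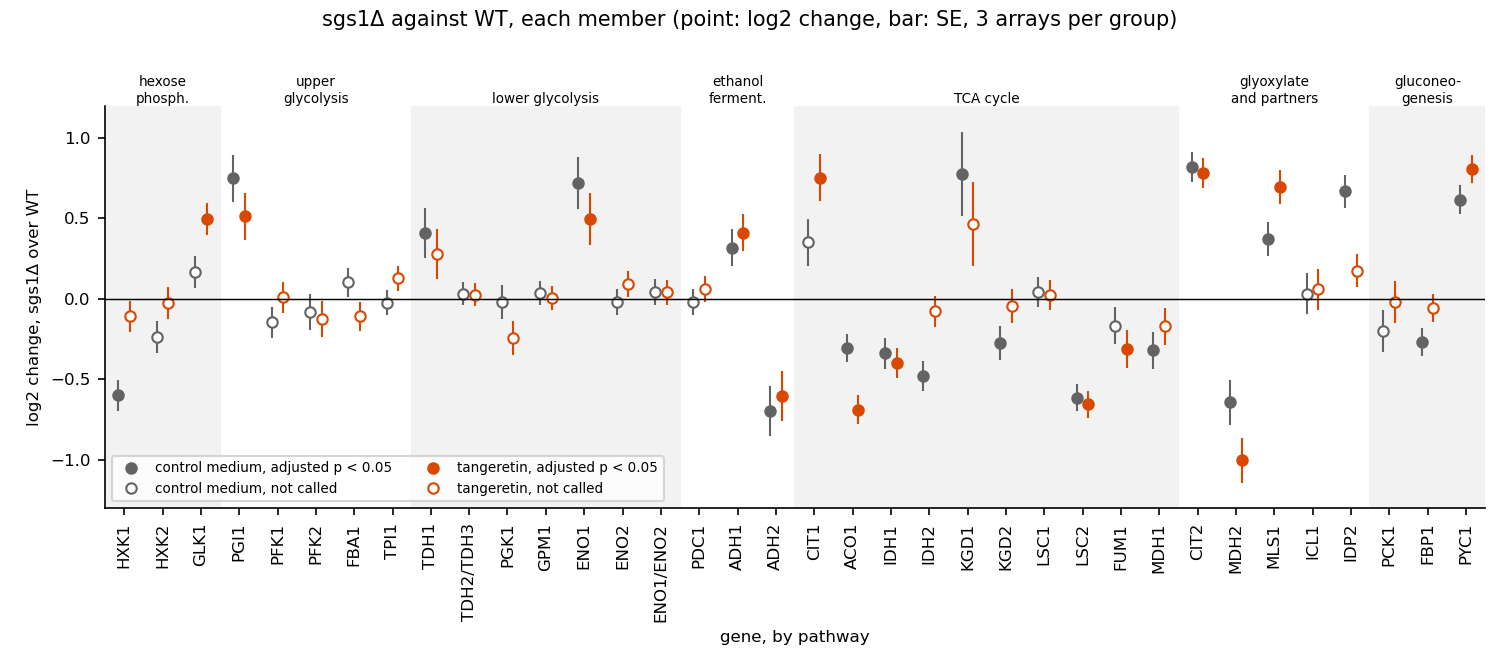
Log2 change of each member in sgs1Δ over WT (vertical) in control medium (grey) and under tangeretin (orange), by pathway, without CDC19. Points are differences of group means with 3 arrays per group, bars are SE, and filled points have an adjusted p under 0.05. TCA rows lie mostly below 0, and CIT2, PYC1, MLS1 and PGI1 lie above 0 in both media.

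LSC2, the β subunit of succinyl-CoA ligase, was lower in sgs1Δ in both media. Its log2 intensity was 12.17, 12.20 and 12.24 in WT control, 12.28, 12.13 and 12.40 in WT with tangeretin, 11.60, 11.57 and 11.60 in sgs1Δ control and 11.61, 11.68 and 11.56 in sgs1Δ with tangeretin. Every sgs1Δ array was below every WT array. The difference was -0.61 in control medium (SE 0.08, adjusted p = 7.05e-05 by limma) and -0.65 under tangeretin (SE 0.08, adjusted p = 3.74e-05). LSC1, the α subunit of the same enzyme, differed by 0.04 and 0.02 and was not called.

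ACO1, aconitase, read 14.30, 14.26 and 14.47 in WT control, 14.59, 14.54 and 14.53 in WT with tangeretin, 14.13, 14.03 and 13.96 in sgs1Δ control and 13.77, 13.86 and 13.97 in sgs1Δ with tangeretin. The strains did not overlap in either medium, and the gap was wider under tangeretin. It was -0.31 in control medium (SE 0.09, adjusted p = 0.0124 by limma) and -0.69 under tangeretin (SE 0.09, adjusted p = 3.76e-05). Without sgs1Δ control 3 the gap in control medium was -0.27 and not called (adjusted p = 0.0531). The test of the difference between both gaps did not call ACO1 (interaction -0.38, SE 0.13, adjusted p = 0.159).

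Both subunits of the mitochondrial isocitrate dehydrogenase were lower in control medium. IDH1 differed by -0.34 (adjusted p = 0.00947 by limma) and IDH2 by -0.48 (SE 0.09, adjusted p = 0.00105). Under tangeretin IDH1 stayed lower at -0.40 (adjusted p = 0.00359), and IDH2 at -0.08 was not called. MDH1, the mitochondrial malate dehydrogenase, was lower in control medium by -0.32 (adjusted p = 0.0324), and KGD2, the dihydrolipoyl transsuccinylase of α-ketoglutarate dehydrogenase, by -0.28 (adjusted p = 0.0446). FUM1, fumarase, was called under tangeretin at -0.31 (adjusted p = 0.042), where MDH1 (-0.17) and KGD2 (-0.04) were not. Several of these calls were lost without single arrays or with other processing. MDH1 lost its call without WT control 1 (-0.27), sgs1Δ control 1 (-0.29) or sgs1Δ control 3 (-0.24), KGD2 without WT control 3 (-0.16) or any of 6 other arrays (-0.24 to -0.28), and FUM1 without any of 7 arrays (-0.26 to -0.34). MDH1 also lost it with 75th percentile scaling (-0.22), with only the groups of the comparison, with chromosome II left out (-0.26) and with array brightness as a covariate. KGD2 lost it with an offset of 16 or none, cyclic loess (-0.25), the deposited log2 values, only the groups of the comparison or chromosome II left out (-0.21), and FUM1 with no offset, cyclic loess (-0.26), the deposited log2 values, array brightness or chromosome II left out (-0.26).

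Against that direction stood KGD1, the α-ketoglutarate dehydrogenase subunit, and CIT1, the mitochondrial citrate synthase. KGD1 read 8.63, 8.17 and 9.56 in WT control, 9.15, 9.55 and 9.59 in WT with tangeretin, 9.33, 9.84 and 9.52 in sgs1Δ control and 9.78, 10.05 and 9.85 in sgs1Δ with tangeretin. WT control 3 lay inside the range of the sgs1Δ control arrays, and so the groups overlapped. The strain difference was 0.77 in control medium (SE 0.26, adjusted p = 0.0255 by limma), and it became 1.16 without WT control 3. The call was lost without WT control 1 (0.70), WT control 2 (0.46), sgs1Δ control 2 (0.63) or sgs1Δ control 3 (0.80). Under tangeretin it was 0.46 and not called (adjusted p = 0.162). WT control 3 and sgs1Δ control 2, the brightest arrays of the control groups, had the highest KGD1 values of those groups, and with array brightness in the fit the difference in control medium was -0.32.

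CIT1 read 12.23, 12.25 and 12.27 in WT control, 12.17, 12.44 and 12.25 in WT with tangeretin, 12.43, 12.98 and 12.39 in sgs1Δ control and 12.86, 12.99 and 13.27 in sgs1Δ with tangeretin. All sgs1Δ arrays exceeded the WT arrays of the same medium. The difference was 0.35 in control medium, not called (adjusted p = 0.0637 by limma), and 0.75 under tangeretin (SE 0.15, adjusted p = 0.000986).

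In the glyoxylate group CIT2, the peroxisomal citrate synthase and a target of the retrograde pathway from mitochondria to nucleus, was higher in sgs1Δ. It read 13.54, 13.52 and 13.47 in WT control, 13.37, 13.43 and 13.23 in WT with tangeretin, 14.39, 14.16 and 14.43 in sgs1Δ control and 14.06, 14.18 and 14.13 in sgs1Δ with tangeretin. The lowest sgs1Δ array lay above the highest WT array. The change was 0.82 in control medium (SE 0.09, 1.77-fold, adjusted p = 1.14e-05 by limma) and 0.78 under tangeretin (SE 0.09, 1.72-fold, adjusted p = 1.61e-05).

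MLS1, malate synthase, read 7.23, 7.13 and 7.08 in WT control, 6.85, 6.91 and 7.14 in WT with tangeretin, 7.64, 7.49 and 7.43 in sgs1Δ control and 7.79, 7.50 and 7.70 in sgs1Δ with tangeretin. It was dim in raw intensity, at a mean of 52.0 in WT control, but detected on every array and higher on all 6 sgs1Δ arrays. Its change was 0.37 in control medium (SE 0.11, adjusted p = 0.0108 by limma) and 0.70 under tangeretin (SE 0.11, adjusted p = 0.00015). ICL1, isocitrate lyase, the other enzyme particular to the glyoxylate cycle, differed by 0.03 and 0.06 and was called in neither medium.

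MDH2, the cytosolic malate dehydrogenase, went the other way. It read 11.60, 11.63 and 12.21 in WT control, 12.34, 12.59 and 12.67 in WT with tangeretin, 11.12, 11.20 and 11.19 in sgs1Δ control and 11.52, 11.54 and 11.53 in sgs1Δ with tangeretin. The sgs1Δ arrays lay below the WT arrays in both media, and WT control 3 lay between the other WT controls and the treated WT arrays. The difference was -0.64 in control medium (SE 0.14, adjusted p = 0.00206 by limma) and -1.002 under tangeretin (SE 0.14, 2.00-fold lower, adjusted p = 7.16e-05). Without WT control 3 the difference in control medium was -0.44 and was still called.

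IDP2, the cytosolic NADP-dependent isocitrate dehydrogenase, was detected on no WT control array, where it read 5, 8 and 8 in raw intensity. It read 16, 35 and 27 in WT with tangeretin (2 of 3 arrays detected), 41, 56 and 47 in sgs1Δ control and 33, 64 and 66 in sgs1Δ with tangeretin. The log2 means were 5.93 in WT control and 6.60 in sgs1Δ control, a fitted change of 0.67 (adjusted p = 0.000164 by limma). Raising the WT control arrays to the lowest detected signal of any probe left the IDP2 values as they were, so this step could not test the size of the change. That size depends on the offset of 50, and without an offset the change was 2.10. Under tangeretin the change was 0.17 and not called. With 75th percentile scaling the change in control medium was 0.17 as well, and the call was lost (adjusted p = 0.32).

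Strain differences in glycolysis fell on single enzymes. Among the hexose phosphorylating enzymes HXK1, hexokinase 1, read 10.77, 10.79 and 10.98 in WT control, 10.60, 10.70 and 10.85 in WT with tangeretin, 10.22, 10.32 and 10.21 in sgs1Δ control and 10.71, 10.52 and 10.59 in sgs1Δ with tangeretin. The 3 sgs1Δ control arrays lay below all others. The change was -0.60 in control medium (SE 0.10, adjusted p = 0.000232 by limma) and -0.11 under tangeretin, not called, and the test of the difference between them missed the threshold (interaction 0.49, SE 0.14, adjusted p = 0.0922). GLK1, glucokinase, was not called in control medium (0.17) and was higher under tangeretin by 0.49 (SE 0.10, adjusted p = 0.00118).

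PGI1, phosphoglucose isomerase, was higher in sgs1Δ by 0.75 in control medium (SE 0.14, adjusted p = 0.000913 by limma) and 0.51 under tangeretin (adjusted p = 0.0105). It read 14.43, 14.65 and 14.98 in WT control, 14.81, 15.23 and 14.89 in WT with tangeretin, 15.53, 15.30 and 15.48 in sgs1Δ control and 15.37, 15.65 and 15.44 in sgs1Δ with tangeretin, with no overlap of the strains. With 75th percentile scaling the call under tangeretin was lost (0.22). PGI1 is the only member on chromosome II, where the median change of 379 genes was 0.75 in control medium and 0.71 under tangeretin, with 327 and 316 genes called higher. The medians of the other 15 chromosomes lay between -0.13 and 0.05 in control medium. The change of PGI1 was thus equal to the chromosome's median in control medium and below it under tangeretin.

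ENO1, an enolase isoenzyme, read 12.45, 12.37 and 12.99 in WT control, 12.85, 13.25 and 13.26 in WT with tangeretin, 13.16, 13.56 and 13.25 in sgs1Δ control and 13.60, 13.54 and 13.71 in sgs1Δ with tangeretin. WT control 3 and sgs1Δ control 2 were again the highest of their groups, and the strains did not overlap in either medium. Its change was 0.72 in control medium (SE 0.16, adjusted p = 0.00262 by limma) and 0.49 under tangeretin (SE 0.16, adjusted p = 0.0237), where the call was lost without WT tangeretin 1 (0.36), sgs1Δ tangeretin 1 (0.50) or sgs1Δ tangeretin 3 (0.44). ENO2, at the ceiling on 4 arrays, and the shared row ENO1/ENO2, never at the ceiling, were not called in either medium, at -0.02 and 0.09 and at 0.04 and 0.04.

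TDH1, the minor glyceraldehyde-3-phosphate dehydrogenase, had probes that disagreed. The brighter probe was higher in sgs1Δ control by 0.41 (SE 0.16, adjusted p = 0.0446 by limma), whereas the second probe was lower by -0.38 (SE 0.08, adjusted p = 0.0012). Averaged over both probes the change was 0.01, and with the 14 control copies of the brighter probe averaged in it was 0.14 (adjusted p = 0.249). The call on the brighter probe was also lost without any of 8 arrays (0.23 to 0.44). The probes give TDH1 no common direction.

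The remaining glycolytic rows moved little on the normalized scale. PFK1 and PFK2, the phosphofructokinase subunits, FBA1, TPI1, TDH2/TDH3, PGK1, GPM1, HXK2 and PDC1 changed by -0.24 to 0.13 between the strains over both media, and none was called. A second TDH2/TDH3 probe, never at the ceiling and fitted as its own row, changed by 0.18 in control medium and 0.24 under tangeretin. It was not called (adjusted p = 0.119 and 0.0524 by limma). That none of these rows was called depends on the scaling. With each array divided by its 75th percentile in place of quantile normalization, 24 members were called in control medium, 6 higher and 18 lower, and 20 under tangeretin, 6 higher and 14 lower. Of all rows 52.9% and 51.1% were called with that scaling, and their median stayed at -0.05 and -0.07. The rows this added as lower in both media were ENO2 (-0.45 and -0.51), HXK2 (-0.55 and -0.29), PDC1 (-0.49 and -0.56), PGK1 (-0.32 and -0.51), GPM1 (-0.34 and -0.60), TPI1 (-0.44 and -0.40) and TDH2/TDH3 (-0.40 and -0.59). Of these ENO2, GPM1, TDH2/TDH3, TPI1 and PDC1 were at the ceiling on every sgs1Δ tangeretin array and on at least 1 sgs1Δ control array. Their values are capped on those arrays, so their changes cannot be read as lower transcripts. HXK2 and PGK1 were never at the ceiling, nor was ENO1/ENO2, which that scaling called lower in control medium (-0.26). The cause of the lower values with that scaling was not tested. The direction of ENO2, PDC1 and TPI1 under tangeretin and of GPM1 and TDH2/TDH3 in both media was the opposite of that after quantile normalization.

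In fermentation the alcohol dehydrogenases differed in direction. ADH2, the glucose-repressed enzyme that oxidises ethanol, read 7.89, 8.19 and 8.21 in WT control, 8.34, 8.44 and 7.77 in WT with tangeretin, 7.58, 7.25 and 7.37 in sgs1Δ control and 7.52, 7.64 and 7.58 in sgs1Δ with tangeretin. All sgs1Δ arrays were below all WT arrays. Its change was -0.70 in control medium (SE 0.15, adjusted p = 0.00237 by limma) and -0.61 under tangeretin (adjusted p = 0.00586). ADH1, the main fermentative enzyme, was higher by 0.32 in control medium (adjusted p = 0.0315) and by 0.41 under tangeretin (adjusted p = 0.00866), and its arrays overlapped between the strains in control medium. The ADH1 call in control medium was lost without WT control 1 (0.31), WT control 2 (0.23), sgs1Δ control 2 (0.25) or sgs1Δ control 3 (0.27), and with 75th percentile scaling it was lost in both media (0.09 and 0.14).

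PYC1, a pyruvate carboxylase that refills oxaloacetate, was the gluconeogenic and anaplerotic member with a higher level in sgs1Δ. It read 12.95, 13.01 and 13.12 in WT control, 12.94, 13.00 and 13.17 in WT with tangeretin, 13.58, 13.72 and 13.64 in sgs1Δ control and 13.83, 13.90 and 13.79 in sgs1Δ with tangeretin. Every sgs1Δ array was above every WT array. The change was 0.62 in control medium (SE 0.09, adjusted p = 9.34e-05 by limma) and 0.81 under tangeretin (SE 0.09, 1.75-fold, adjusted p = 8.36e-06). FBP1, fructose-1,6-bisphosphatase, was lower in control medium by -0.27 (SE 0.09, adjusted p = 0.0225) and at -0.06 under tangeretin was not called. That call was lost without WT control 1 (-0.25), WT control 2 (-0.24) or sgs1Δ control 3 (-0.21), and with cyclic loess (-0.11), with only the groups of the comparison and with array brightness in the fit (-0.15, adjusted p = 0.563 by limma). PCK1, phosphoenolpyruvate carboxykinase, changed by -0.20 and -0.02 and was called in neither.

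**Figure D3:**
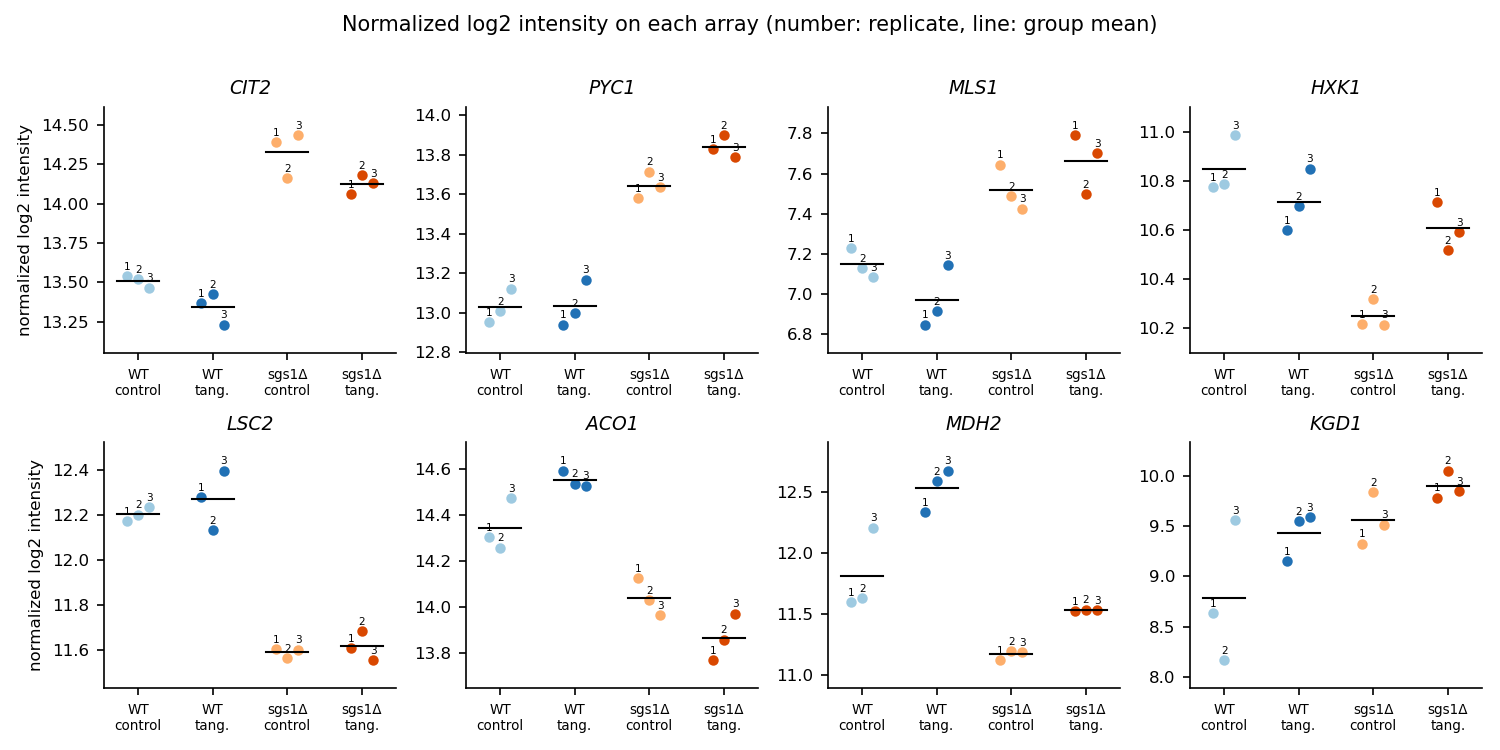
Normalized log2 intensity (vertical, own scale per panel) of CIT2, PYC1, MLS1, HXK1, LSC2, ACO1, MDH2 and KGD1 on each array, with the replicate number beside each point and a line at the group mean. CIT2, PYC1 and LSC2 separate the strains on all arrays, the sgs1Δ control arrays of HXK1 lie below the others, and WT control 3 lies above the other WT control arrays for MDH2 and KGD1.

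The calls of both media can be set side by side, since the strain comparisons share no arrays, although they share the fit's estimate of spread. Of the 19 members called in control medium 11 were also called under tangeretin (57.9% of the former, 78.6% of the latter), all in the same direction. Among all rows 2066 were called in both media in the same direction, 67.7% of the calls in control medium and 71.2% of those under tangeretin. The 6 members higher in both were CIT2, MLS1, PYC1, PGI1, ENO1 and ADH1, and the 5 lower in both were LSC2, ACO1, IDH1, MDH2 and ADH2.

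Because sgs1Δ arrays were brighter, the log2 median raw intensity of each array was added to the fit as a covariate. This alternative was chosen after the data had been seen. It called 789 of all rows in control medium and 1111 under tangeretin, in place of 3051 and 2901. Of the members 7 kept their call in control medium, namely HXK1, KGD2, LSC2, CIT2, MDH2, IDP2 and PYC1, and 7 under tangeretin, namely GLK1, ACO1, LSC2, CIT2, MDH2, MLS1 and PYC1. CIT2 (0.97 and 0.93), PYC1 (0.45 and 0.64), LSC2 (-0.58 and -0.63) and MDH2 (-1.10 and -1.46) were called in both media in that fit. ENO1 fell to 0.06 in control medium and -0.15 under tangeretin, ADH1 to 0.03 and 0.13, and PGI1 to 0.41 and 0.18, none of them called. Of the TCA cycle, IDH1 shrank to -0.11 and -0.17 and CIT1 came to -0.09 and 0.32, and neither was called in either medium. Other members lost their call while the change was larger than without the covariate, among them ADH2 (-0.79 and -0.69) and, in control medium, ACO1 (-0.43), MDH1 (-0.50) and MLS1 (0.49). The TCA cycle then had 2 rows lower and none higher in each medium, with medians of -0.34 and -0.36. Brightness and strain are nearly aligned in these arrays, and how far each accounts for the calls that were lost was not tested.

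**Figure D4:**
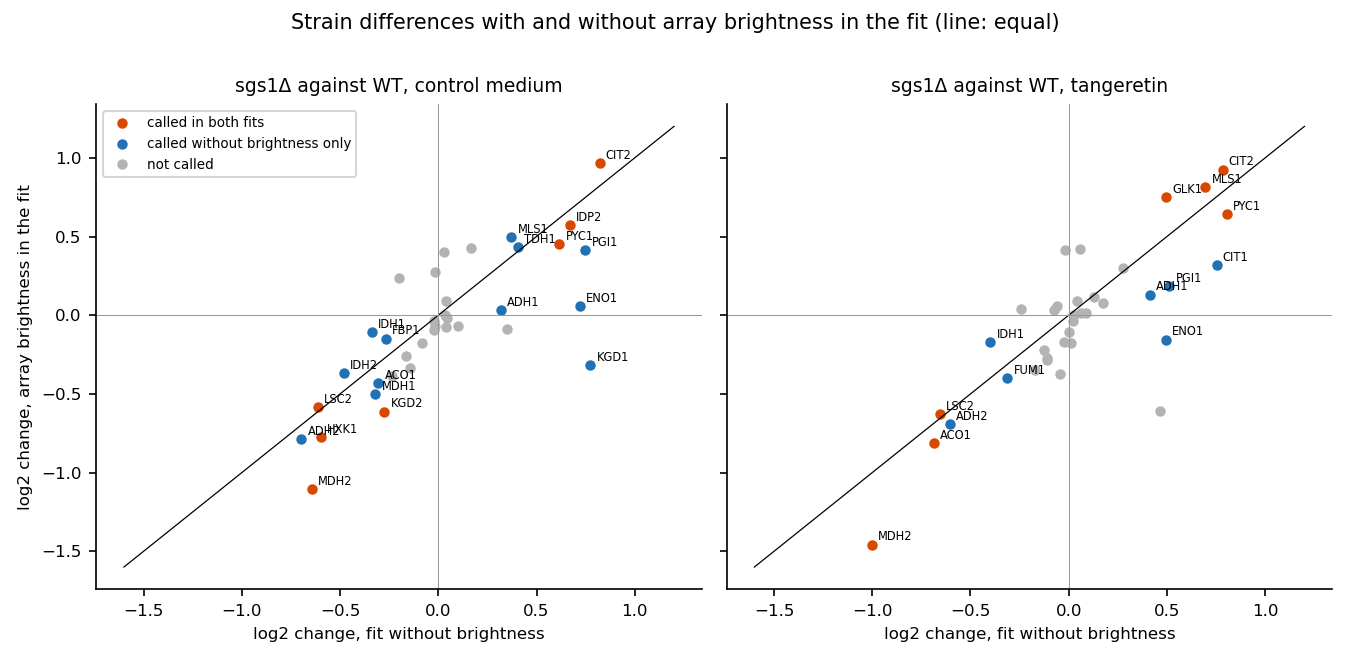
Log2 change of each member in sgs1Δ over WT without (horizontal) and with (vertical) array brightness in the fit, in control medium (left) and under tangeretin (right), with a line of equality. Orange points were called in both fits, blue points without brightness only and grey points in neither. CIT2, PYC1, LSC2 and MDH2 are orange in both panels, and KGD1 and ENO1 fall far below the line.

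Between WT with and without tangeretin, 1 of 36 members was called, MDH2, where 3.15% of all rows were called. MDH2 rose by 0.72 (SE 0.14, 1.65-fold, adjusted p = 0.02 by limma), with the values by array given above and no overlap. Of the 36 members 7 had an unadjusted p under 0.05, against 27.5% of all rows, and 7 did not overlap, against 24.6% of all rows. The call on MDH2 was lost without WT control 1 (0.61) or WT control 2 (0.63), without WT tangeretin 2 (0.69) or 3 (0.65), with only the WT arrays in the fit and with array brightness in the fit (0.45), and without WT control 3 the change was 0.91.

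Of the single arrays left out, WT control 3 changed the number of WT calls most. Without that array 6 members were called, where 26.3% of all rows were called. ENO1 rose by 0.71 (adjusted p = 0.00572 by limma), KGD1 by 1.03 (adjusted p = 0.00277), PGI1 by 0.43 and ACO1 by 0.27, and PCK1 fell by 0.47 (adjusted p = 0.0181). With all arrays the changes were 0.52 for ENO1 (adjusted p = 0.0826), 0.65 for KGD1 (adjusted p = 0.139) and -0.34 for PCK1 (adjusted p = 0.13). The second TDH1 probe, fitted as its own row, had a change of -0.38 (adjusted p = 0.0209), while the brighter probe changed by 0.07.

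In sgs1Δ limma called none of the 36 members, where 1.4% of all rows were called (0.724% higher and 0.677% lower), and 6 members had an unadjusted p under 0.05 against 21.8% of all rows. Member changes ran from -0.20 to 0.44 with a median SE of 0.10, and 8 members did not overlap between control and tangeretin, against 24.9% of all rows. The largest were CIT1 at 0.44 (SE 0.15, adjusted p = 0.119), MDH2 at 0.36 (SE 0.14, adjusted p = 0.163) and HXK1 at 0.36 (SE 0.10, adjusted p = 0.0769). Without sgs1Δ control 2, CIT1 (0.63, adjusted p = 0.0092) and HXK1 (0.39, adjusted p = 0.0348) were called, where 11.8% of all rows were called.

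The interaction, the tangeretin change in sgs1Δ minus that in WT, called none of the 36 members by limma, where 1.27% of all rows were called, and 6 had an unadjusted p under 0.05 against 16.3% of all rows. Its member values ran from -0.49 for IDP2 (SE 0.14, adjusted p = 0.113) to 0.49 for HXK1. MDH2 had an interaction of -0.36 (adjusted p = 0.388), which became -0.55 without WT control 3 and was then called (adjusted p = 0.0344). With array weights from limma, which also keep all 12 arrays, 9 members were called for the interaction, where 24% of all rows were called. The tangeretin and strain comparisons of a strain or medium share arrays, so their values for a gene are not independent.

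**Figure D5:**
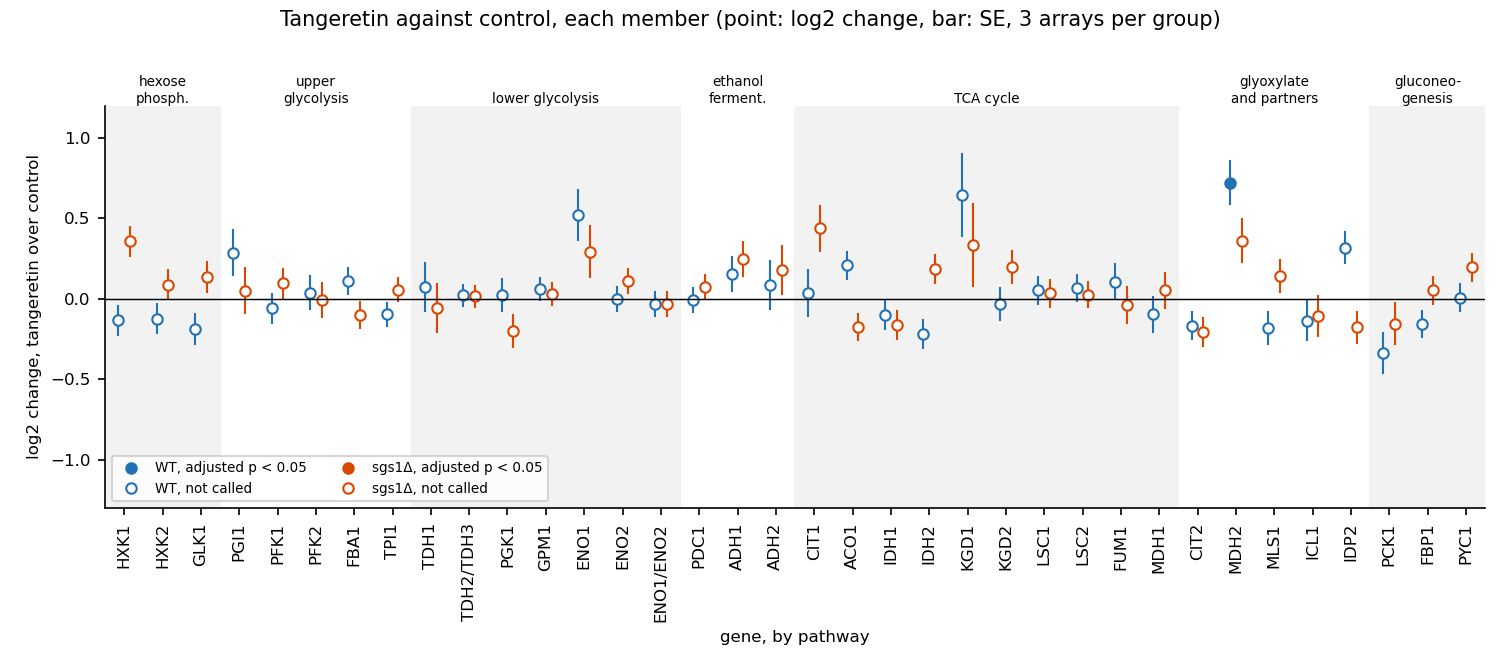
Log2 change of each member under tangeretin over control (vertical) in WT (blue) and sgs1Δ (orange), by pathway, without CDC19. Points are differences of group means with 3 arrays per group, bars are SE, and a filled point has an adjusted p under 0.05. MDH2 in WT is the 1 filled point.

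Further genes of these routes were taken as lists from textbook knowledge. Of all rows 48% were called between the strains in control medium, 21.3% higher and 26.7% lower. Under tangeretin these shares were 45.6%, 20.5% and 25.1%, and the strain counts of every list below stand against them. Of 14 hexose transporter rows 1 was higher and 8 were lower in sgs1Δ in control medium (median -0.38), and 1 higher and 6 lower under tangeretin (median -0.23). HXT7, a high-affinity transporter, changed by -1.74 in control medium (SE 0.12, adjusted p = 1.49e-07 by limma) and by -1.14 under tangeretin, and the row shared with its near-identical copy HXT6 by -1.31 and -0.80. The probes of HXT6 and HXT7 cannot separate these copies with certainty.

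Among 14 other glycolytic and fermentative rows 3 were higher and 3 lower in control medium. ADH4, an alcohol dehydrogenase isoenzyme, changed by -2.76 (SE 0.09, adjusted p = 6.37e-11 by limma) in control medium and by -2.79 (adjusted p = 5.95e-11) under tangeretin. Of 15 other TCA, glyoxylate and gluconeogenic rows 8 were higher and 2 lower in control medium (median 0.35) and 7 higher and none lower under tangeretin (median 0.48). ODC2, a mitochondrial carrier of oxodicarboxylates, was higher by 1.26 in control medium. PYC2, the other pyruvate carboxylase, was higher by 1.24 in control medium and lies on chromosome II.

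Of 29 regulators 7 were higher and 8 lower in control medium (median -0.05), and 8 higher and 7 lower under tangeretin. These counts were near the shares of all rows, 48% and 45.6%. HAP4, the regulated subunit of the activator of respiratory genes, was lower in sgs1Δ by -1.23 in control medium (SE 0.08, adjusted p = 7.14e-08 by limma) and by -0.69 under tangeretin (adjusted p = 1.48e-05). ADR1, an activator of ADH2 and other glucose-repressed genes, was lower by -1.17 (adjusted p = 7e-07) and -1.21 (adjusted p = 4.7e-07). RTG3, an activator of the retrograde pathway and of CIT2, was higher by 0.88 and 1.28 and lies on chromosome II. HAP4, ADR1, RTG3, HXT7 and ADH4 were called in both media with array brightness in the fit as well.

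Of 11 pentose phosphate rows 5 were higher and 3 lower in each medium, with SOL4, a 6-phosphogluconolactonase, at 1.16 under tangeretin and TKL2, a transketolase on chromosome II, at 1.22. Of 9 pyruvate dehydrogenase and acetyl-CoA rows 1 was higher and 2 lower in control medium, and 4 higher and 3 lower under tangeretin. Under tangeretin in WT the calls in these lists included HAP4 at -0.55 (adjusted p = 0.00437 by limma) and RPE1, ribulose-phosphate epimerase, at 0.48 (adjusted p = 0.0437). In sgs1Δ there was 1 call, PDX1, a component of pyruvate dehydrogenase, at -0.40 (adjusted p = 0.0455 by limma), where 1.4% of all rows were called. The interaction called HXT5, a transporter expressed at slow growth, at 0.55 (adjusted p = 0.0486) and HAP4 at 0.54 (adjusted p = 0.0371), whose strain difference was thus smaller under tangeretin.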

How the data were processed

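Per the file headers, the deposited raw table gives 1 intensity per spot and array. Background had already been subtracted, since the 2158 empty spots had medians of 0 to 1. The deposited scanner flag (unit other) was read as detected at 0. The authors' value table holds log2 values already normalized between arrays, by a method not given in the sources used here. Here values under 0 were set to 0, 50 was added, and the 6958 probes that are no controls were quantile normalized and taken to log2. Probes detected on fewer than 3 arrays (301) were left out, and of several probes for 1 gene the brightest was kept, which left 6356 rows. RefSeq R64 gave symbols and chromosomes, matching 5910 of 6424 probes with a locus, and 325 probes named for several genes kept combined names. The 4 groups were fitted together with limma 3.58.1 in R 4.3.3 (lmFit and eBayes, 8 residual degrees of freedom), with two-sided p-values, adjusted after Benjamini and Hochberg across the 6356 rows of each of 5 comparisons, and the script was tested on simulated data. Precision is limited by 3 arrays per group. Replicate numbers were not used as pairs. Members and lists were chosen with earlier results of these data known. Named were members called in any comparison, at the ceiling or undetected in a whole group, and up to 6 called genes of the further lists per comparison with the largest change. The alternatives are those of the closing section. A result of 1 gene of the further lists is not reported here. Sequences were not used here.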

Additional observations from a re-analysis of the deposited data

How the results depend on the processing

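Of the values of called members under the alternatives, 884 kept direction and call, 126 kept direction but not the call, and 2 reversed, both with array brightness in the fit (KGD1 in control medium at -0.32 and ENO1 under tangeretin at -0.15). Members called were 1, 0, 19, 14 and 0 for tangeretin in WT, tangeretin in sgs1Δ, strain in control medium, strain under tangeretin and the interaction. These counts became 0, 0, 7, 7 and 0 with array brightness, 12, 9, 23, 14 and 9 with array weights (where 41.7%, 24.9%, 65.6%, 53.9% and 24% of all rows were called), 0, 0, 0, 1 and 0 with a change of at least 1 on the log2 scale required, 2, 0, 17, 13 and 0 without an offset, and 0, 0, 13, 15 and 0 with only the groups of a comparison. With the replicate number as a block, which the data did not bear out as a pairing (same-number deviations correlated at -0.417 to 0.501), they were 2, 0, 20, 14 and 0. Leaving out single arrays gave 0 to 6, 0 to 2, 13 to 19, 12 to 15 and 0 to 1, and leaving out WT control 3 and sgs1Δ control 2 together gave 6, 5, 18, 15 and 4. In control medium the count was 13 without sgs1Δ control 3 and 14 without WT control 1. With 75th percentile scaling 74.2% of all calls for tangeretin in WT were higher, against 55.5% after quantile normalization, and in sgs1Δ 72.6% against 51.7%. The strain calls on CIT2, PYC1 and LSC2 in both media, and on HXK1 and MDH2 in control medium, were kept in every setting run but the size threshold. The same held under tangeretin for ACO1, GLK1 and MLS1 in each setting that held the row. The call on MDH2 under tangeretin was kept in all 30. The cause of the other losses was not tested. Signal limits the rows at the ceiling, and IDP2, MLS1, FBP1 and ADH2 lie near background.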
